A study of Homo sapiens with 18 samples.

Results

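The genes described are 10 that encode proteins secreted by the embryonic yolk sac and the liver: AFP, TTR, APOA1, APOA2, APOB, FGA, FGB, FGG, AHSG and ALB. They were chosen by name out of 19775 genes measured on 18 arrays, with earlier results of these data known. All 10 were on the arrays. Shares of all genes stand beside counts of these genes as a description, not as a test of the set. Each gene is represented by 1 probe set, a group of short probes on the array, that carries the name of that gene alone. Probe sets whose names end in _x_at, which may cross-hybridise, were passed over where a gene had another, and of the rest the one with the highest mean over the 18 arrays was taken. The genes had 1 to 4 such probe sets each, and the others are described beside the first.

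The RNA came from H9, an established human embryonic stem (ES) cell line, during differentiation to neuroepithelium, the sheet of cells that forms the brain and spinal cord. There were 6 groups of 3 RNA pools: undifferentiated ES cells, embryoid bodies (cell aggregates in suspension) at day 6, primitive neuroepithelium at day 10 and definitive neuroepithelium at day 17 without added growth factor, and the same at day 10 and at day 17 with basic fibroblast growth factor (bFGF) from day 6. The labels give bFGF as 20 ug/ml for the day 10 pools and as 20 ng/ml for the day 17 pools, and the sources used here do not settle the unit at day 10. All groups derive from 1 cell line. Passage numbers, which the labels state for undifferentiated and day 6 cells only, were shared between some of those pools (27, 28 and 31 in 1 ES pool and in both day 6 pools numbered 1 and 2), and a p-value here reflects the spread between such pools, which may be technical, and no more.

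In the embryo these proteins are first made by the visceral endoderm of the yolk sac, which supplies the embryo with carriers of lipid, vitamin A, hormone and metal before a liver exists, and then by hepatocytes. AFP is the main fetal plasma protein and ALB its adult counterpart; TTR carries thyroxine and, with RBP4, retinol; APOA1, APOA2 and APOB are the protein frames of lipoproteins; FGA, FGB and FGG are the chains of fibrinogen; AHSG (fetuin-A) binds mineral and is abundant in the fetus. Transcription factors of the HNF4, FOXA, GATA and CEBP families drive these genes in endoderm and liver. Some members are also made elsewhere: TTR in the choroid plexus and the retinal pigment epithelium, and apolipoproteins in the intestine.

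On the human genome, AFP lies between ALB and AFM on chromosome 4, and FGB, FGA and FGG are adjacent on the same chromosome. APOA1 lies next to APOC3 on chromosome 11, AHSG next to FETUB on chromosome 3, APOA2 on chromosome 1, APOB on chromosome 2 and TTR on chromosome 18. RefSeq's promoter table (GRCh38.p14) holds 7 of the 10 members, without TTR, APOA1 and APOB. The 250 bases before the start of 4 of them are printed below, 5′ to 3′ on the strand of the gene: APOA2 and AHSG because each holds a motif of a liver or endoderm factor other than the short GATA motif alone, and the neighbours AFP and ALB because their array signals differed, as given below. They are chr4:73435971-73436220 (+ strand) for AFP, chr4:73404037-73404286 (+) for ALB, chr1:161223629-161223878 (-) for APOA2 and chr3:186612810-186613059 (+) for AHSG. Capitals mark the motif matches:
AFP: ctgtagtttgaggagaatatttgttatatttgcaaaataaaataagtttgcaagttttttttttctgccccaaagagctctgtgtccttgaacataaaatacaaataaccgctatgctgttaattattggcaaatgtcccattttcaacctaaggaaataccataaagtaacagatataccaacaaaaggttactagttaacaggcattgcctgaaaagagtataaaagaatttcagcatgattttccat
ALB: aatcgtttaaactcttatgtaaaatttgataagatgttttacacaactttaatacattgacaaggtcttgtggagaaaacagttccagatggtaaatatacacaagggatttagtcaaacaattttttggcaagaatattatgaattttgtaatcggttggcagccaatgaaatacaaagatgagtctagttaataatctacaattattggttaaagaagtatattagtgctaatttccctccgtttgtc
APOA2: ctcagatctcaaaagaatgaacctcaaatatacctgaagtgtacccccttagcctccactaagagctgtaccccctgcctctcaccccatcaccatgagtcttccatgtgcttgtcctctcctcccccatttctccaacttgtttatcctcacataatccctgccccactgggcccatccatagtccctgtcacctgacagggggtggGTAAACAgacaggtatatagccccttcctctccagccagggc
AHSG: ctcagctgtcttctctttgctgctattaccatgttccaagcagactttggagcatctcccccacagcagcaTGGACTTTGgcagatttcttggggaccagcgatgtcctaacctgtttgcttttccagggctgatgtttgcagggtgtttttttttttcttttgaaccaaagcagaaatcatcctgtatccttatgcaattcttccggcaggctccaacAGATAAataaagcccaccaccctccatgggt
Exact matches were sought on both strands, and positions count from -1, the base before the start. The FOXA core TGTTTAC was in APOA2 alone of the 7, at -42 and read as GTAAACA (2.98% of all 27305 promoters). The HNF4 motif CAAAGTCCA was in AHSG alone, at -179 and read as TGGACTTTG (0.293%). The GATA motif AGATAA was in AHSG at -31 and in FGG at -232 (2 of 7, against 9.37%), and the CEBP motif TTGCGCAA was in 0 of the 7 (0.110%). No 2 of these matches overlap. AFP and ALB hold none of these letters, so their windows have no capitals.

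The signal is a linear array intensity that had been scaled to 1 level on all arrays (2% trimmed mean 150.016 to 150.026). Means are given ± SD (n = 3 pools). Changes are estimates ± standard error on the log2(signal + 16) scale, which understates the change of low signals, and a gene was called higher or lower where the adjusted p of limma's test over 19775 genes was under 0.05. The signal of a gene is compared between samples within 1 probe set. The summed signals of gene and marker lists, given last, add several probe sets, and the brightest make up most of each sum. Low signals were raised in pool 2 of each neuroepithelial group (median signal of all probe sets 48.7 to 50.8, against 25.2 to 32.7 on the other 14 arrays). Each comparison among the neuroepithelial groups has 1 of these arrays in each group. Fewer cells that make a protein and less RNA per cell cannot be told apart in pooled RNA.

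Between day 10 and day 17 without bFGF, transcripts of most of these secreted proteins rose. Of the 10 genes 7 were called higher (AFP, TTR, APOA2, APOB, FGA, FGG and AHSG), against 1.45% of all genes (287 of 19775), and 0 were called lower, against 0.536%. For 8 of the 10 the day 17 pools were all above the day 10 pools, against 7.29% of all genes. The median log2 change of the 10 was 1.87, against -0.01 for all genes. FGB was higher in every pool but not called, while ALB and the probe set of APOA1 showed overlapping groups.

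AFP, the marker protein of the yolk sac and fetal liver, had signals of 59.7, 189 and 38.9 in pools 1, 2 and 3 of untreated day 10, and of 659, 834 and 997 at day 17. The day 17 pools all lie far above the highest of the other 15 arrays, the day 10 pool at 189. The means were 830.0 ± 169 and 96.0 ± 81.6, a log2 change of 3.14 ± 0.38 (limma, adjusted p = 0.000235). AHSG, the fetal mineral carrier, moved from 38.3, 70.3 and 25.1 to 243, 349.6 and 265. Again the groups were apart, and the highest of the other 15 arrays was at 112. Its log2 change was 2.37 ± 0.36 (adjusted p = 0.00184), and its second probe set showed 10.3 ± 8.44 at day 10 and 71.5 ± 5.84 at day 17 (1.78 ± 0.29, adjusted p = 0.00465 over 41097 probe sets).

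TTR, the carrier of thyroxine and of retinol-binding protein, had signals of 14.1, 14 and 40.2 at day 10 and of 335, 176 and 657 at day 17. Every day 17 pool was above every day 10 pool, and among the day 17 pools the highest was 3.73 times the lowest. The log2 change was 3.27 ± 0.59 (limma, adjusted p = 0.00649).

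Of the lipoprotein genes, APOA2 and APOB rose. APOA2, a structural protein of high-density lipoprotein, had 35.2, 176 and 89.2 at day 10 and 562, 334 and 897 at day 17, with a log2 change of 2.49 ± 0.47 (limma, adjusted p = 0.00952). The groups were apart, and its second probe set gave nearly the same change (2.32 ± 0.44, adjusted p = 0.0122 over the probe sets). APOB, the frame of very low and low-density lipoprotein, had 46.3, 44.6 and 19.1 at day 10 and 135, 110.5 and 312 at day 17, a log2 change of 1.85 ± 0.35 (adjusted p = 0.00884). Every day 17 pool lay above all other 15 arrays, of which the highest was 46.3. The second APOB probe set was at 40.9 ± 10.1 against 17.2 ± 14.3 (0.88 ± 0.36, adjusted p = 0.451).

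For APOA1, the main protein of high-density lipoprotein, the probe sets differed. The one taken by the rule, 231694_at, was low in all groups: 1.62, 9.90 and 19.1 at day 10 and 22.4, 9.34 and 20.2 at day 17, a log2 change of 0.38 ± 0.41 (limma, adjusted p = 0.910). The groups overlapped. Both other probe sets end in _x_at and were brighter. The brighter of them, 217073_x_at, had 75.5, 129 and 62.2 at day 10 and 288, 147 and 514 at day 17 (1.56 ± 0.39, adjusted p = 0.0735 over the probe sets), and 204450_x_at was at 246 ± 131 against 91.5 ± 29.9 (1.19 ± 0.36, adjusted p = 0.166). Neither passed the test. Whether they measured APOA1 alone was not tested.

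The fibrinogen chains are assembled in equal numbers, and their genes sit side by side. FGA had 24.6, 15.4 and 7.23 at day 10 and 63.2, 138 and 109 at day 17 (log2 change 1.90 ± 0.43, limma, adjusted p = 0.0288). FGG had 13.4, 6.81 and 1.54 at day 10 and 33.1, 95.5 and 47.4 at day 17 (1.63 ± 0.33, adjusted p = 0.0160). For both, the day 17 pools were above every other array, FGA by a narrow margin (lowest day 17 pool 63.2, highest other array 61.7). FGB had 7.08, 59.3 and 2.70 at day 10 and 65.8, 154 and 76.4 at day 17 (1.77 ± 0.49, adjusted p = 0.0887). Its groups were apart, with pool 2 the highest at both days, and FGB passed the test once pool numbers were fitted as a block (0.00404). The second FGB probe set was at 93.0 ± 21.1 against 26.7 ± 24.9 (1.52 ± 0.46, adjusted p = 0.171). Of the other FGA probe sets, 205649_s_at was at 34.4 ± 11.2 against 6.53 ± 5.18 (1.16 ± 0.31, adjusted p = 0.102), and 231671_at at 12.6 ± 7.24 against 18.2 ± 12.3 (-0.22 ± 0.34, adjusted p = 0.968).

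ALB, the major plasma protein after birth and the neighbour of AFP, had 10.5, 7.77 and 37.6 at day 10 and 22.5, 40.3 and 8.55 at day 17. The groups overlapped, and the log2 change was 0.22 ± 0.35 (95% interval -0.53 to 0.97; limma, adjusted p = 0.954). Its other 3 probe sets gave changes of 0.20, -0.09 and 0.09, and their group means were between 1.41 and 21.0 in all 6 groups. With signals this low and no detection calls, the interval sets no limit on a change of ALB itself. AFM, on the other side of AFP, was at 15 against 8.23 (0.30 ± 0.27, adjusted p = 0.866).

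**Figure D1:**
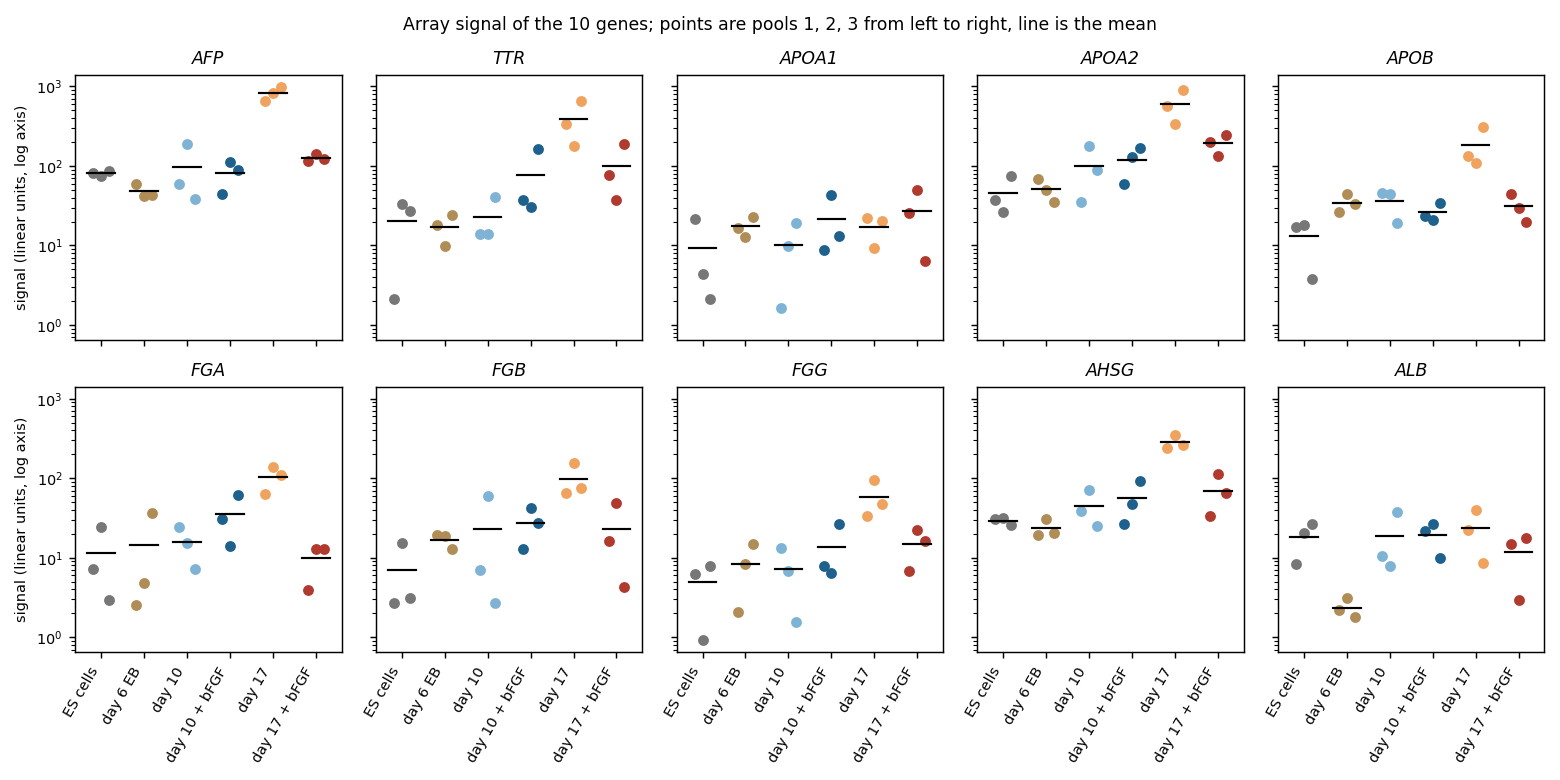
Linear array signal (log axis) of the 10 genes in the 6 groups, with 1 point per pool and a line at the mean of 3. In 7 of the 10 panels all untreated day 17 pools lie above the other 15 arrays, and TTR overlaps with bFGF at day 17 (176 against 189.7). The probe sets shown for APOA1 (231694_at) and ALB stay low in every group. The brighter APOA1 probe sets are not shown.

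**Figure D2:**
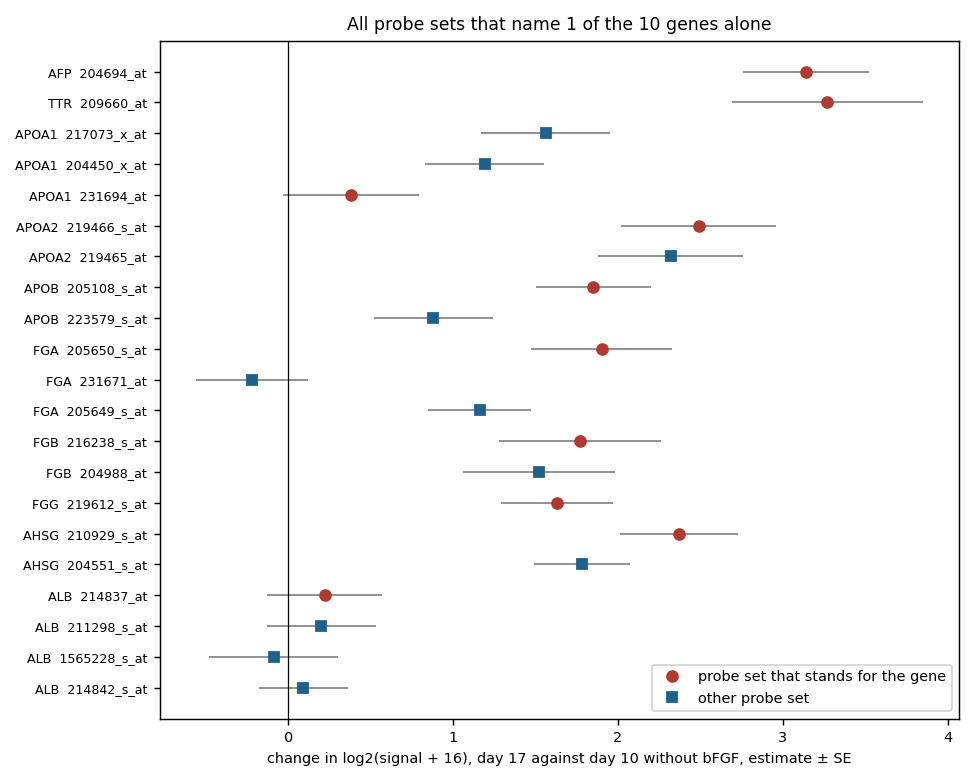
Change from day 10 to day 17 without bFGF, as difference in log2(signal + 16) ± SE, for the 21 probe sets that name 1 of the 10 genes alone. The 4 ALB probe sets and FGA 231671_at lie near 0, and the _x_at probe sets of APOA1 lie above 231694_at.

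Across all 6 groups, the highest mean was that of untreated day 17 for 9 of the 10 genes. The exception was APOA1, by its low probe set taken by the rule (17.3 at untreated day 17, 27.3 at day 17 with bFGF). The brighter APOA1 probe sets, which may cross-hybridise, had their highest means at untreated day 17 (316 and 246). Their next highest means were at day 17 with bFGF (98.4 and 102). For 7 genes (AFP, APOA2, APOB, FGA, FGB, FGG and AHSG) the 3 untreated day 17 arrays were above all other 15, which held for 1.13% of all genes. Below that group the order had few steps larger than the spread. AFP ran from bFGF-treated day 17 (127 ± 13.7) through day 10 without (96.0) and with bFGF (81.4) and ES cells (80.6 ± 5.88) to day 6 (48.3 ± 9.77), and of these neighbours only ES cells and day 6 did not overlap. For APOB the ES pools (17.3, 18.1 and 3.80) lay below those of its neighbour, day 10 with bFGF (23.3, 21.0 and 34.1). For the remaining members, no neighbouring groups below the highest were apart.

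ES cells and day 6 embryoid bodies showed little of the group. From ES cells to day 6, 0 of 10 genes were called, against 3.85% of all genes, and from day 6 to untreated day 10 again 0 of 10, against 6.37%. At an unadjusted p under 0.05, APOB was higher (34.4 ± 8.72 against 13.1 ± 8.04) and ALB lower (2.36 ± 0.656 against 18.5 ± 9.19) at day 6 than in ES cells, against 6.90% of all genes higher and 6.13% lower. ALB was higher at day 10 than at day 6 (18.6 ± 16.5), against 10.6%. The groups were apart for 1 member upward (10.1% of all genes) and 2 downward (9.77%) from ES cells to day 6, and for 1 upward (13.6%) and 0 downward (9.67%) from day 6 to day 10. ES cells and day 6 had AFP signals of 81.8, 74.2 and 85.8 and of 59.6, 42.3 and 43.0, the former all above the latter (log2 change -0.60 ± 0.38, limma, adjusted p = 0.610).

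Between day 10 and day 17 with bFGF, no member passed the test in either direction. As labelled, the bFGF dose differs between these days too. Of the 10 genes 0 were called higher by limma's test, against 0.662% of all genes, and 0 lower, against 0.389%; at an unadjusted p under 0.05 there were 0 higher and 0 lower as well, against 3.77% and 3.53%. The median log2 change was 0.16. AFP went from 44.2, 112 and 87.9 to 117, 143 and 122, groups that were apart but close (0.62 ± 0.38, 95% interval -0.18 to 1.42, limma, adjusted p = 0.899). TTR had 37.7, 30.4 and 162 at day 10 with bFGF and 76.7, 37.0 and 189.7 at day 17, where pool 3 was highest at both days and the groups overlapped (0.39 ± 0.59). FGA was apart in the other direction, with 30.3, 14 and 61.7 at day 10 and 3.89, 12.7 and 13 at day 17 (-0.90 ± 0.43, 95% interval -1.81 to 0.01, adjusted p = 0.698). AFP and FGA were the only members whose groups were apart here, and groups were apart upward for 6.06% and downward for 5.98% of all genes.

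At day 10, bFGF against none gave 0 of 10 called by limma's test, against 0.0860% of all genes (16 higher, 1 lower). At an unadjusted p under 0.05, 0 members were higher and 0 lower, against 1.77% and 1.33% of all genes, and the groups were apart for 0 members, against 3.14% upward and 2.97% downward. The median log2 change was 0.32. For AFP the difference was -0.03 (95% interval -0.83 to 0.77), and the largest was that of TTR (1.04, -0.20 to 2.29), with means of 76.8 ± 74.1 with bFGF and 22.7 ± 15.1 without.

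At day 17, transcripts of AFP, APOB, FGA and AHSG were lower in cells grown with bFGF than in cells grown without. The count was 4 of 10 called, against 0.157% of all genes (31 of 19775), and 0 were called higher, against 0.182%. The median log2 difference of the 10 was -1.74, against -0.01 for all genes. The pools with and without bFGF were apart for 7 of 10 members, all lower with bFGF, against 5.07% of all genes; and 8 of 10 were lower at an unadjusted p under 0.05, against 2.94%.

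AFP was at 117, 143 and 122 with bFGF, against 659, 834 and 997 without, and its log2 difference was -2.55 ± 0.38 (limma, adjusted p = 0.00574). The ratio of the means was 6.52. APOB was at 44.2, 29.9 and 19.8 against 135, 110.5 and 312 (-1.99 ± 0.35, adjusted p = 0.0154), and AHSG at 33.4, 112 and 64.7 against 243, 349.6 and 265 (-1.90 ± 0.36, adjusted p = 0.0321). For all of these genes every pool with bFGF was below every pool without. FGA was at 3.89, 12.7 and 13 against 63.2, 138 and 109 (-2.17 ± 0.43, adjusted p = 0.0384), a ratio of means of 10.5. Over all 41097 probe sets that of FGA was at an adjusted p of 0.0536. Of the other probe sets, AHSG 204551_s_at was at 13.2 ± 6.85 against 71.5 ± 5.84 (-1.61 ± 0.29, adjusted p = 0.0341 over the probe sets). The remaining ones did not pass: APOB 223579_s_at was at 8.11 ± 3.68 against 40.9 ± 10.1 (-1.24 ± 0.36, adjusted p = 0.452), FGA 205649_s_at at 7.85 ± 5.92 against 34.4 ± 11.2 (-1.09 ± 0.31, adjusted p = 0.435), and FGA 231671_at at 28.4 ± 10.0 against 12.6 ± 7.24 (0.65 ± 0.34).

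The other fibrinogen chains, APOA2 and TTR had lower means with bFGF without passing the test. FGB was at 16.1, 48.6 and 4.28 against 65.8, 154 and 76.4 (-1.65 ± 0.49, limma, adjusted p = 0.401), and it passed once pool numbers were fitted as a block (0.0230). FGG was at 6.89, 22.1 and 16.1 (-1.21 ± 0.33, adjusted p = 0.293), and APOA2 at 201, 132 and 246 (-1.48 ± 0.47, adjusted p = 0.491). All of these were apart from the untreated pools. The second probe sets of FGB and APOA2 showed differences of -1.62 and -1.48 (adjusted p = 0.411 and 0.458 over the probe sets). TTR, at 76.7, 37.0 and 189.7, overlapped, since its highest pool with bFGF was above the lowest without (-1.83 ± 0.59, adjusted p = 0.495, and 0.0526 with the block). ALB was at 11.9 ± 7.86 against 23.8 ± 15.9 (-0.47, 95% interval -1.23 to 0.28), and APOA1 231694_at at 27.3 ± 21.6 against 17.3 ± 6.98 (0.27, -0.60 to 1.14). The brighter APOA1 probe sets were at 98.4 ± 20.3 against 316 ± 185 (-1.39 ± 0.39, adjusted p = 0.409 over the probe sets) and at 102 ± 30.0 against 246 ± 131 (-1.05 ± 0.36, adjusted p = 0.696).

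**Figure D3:**
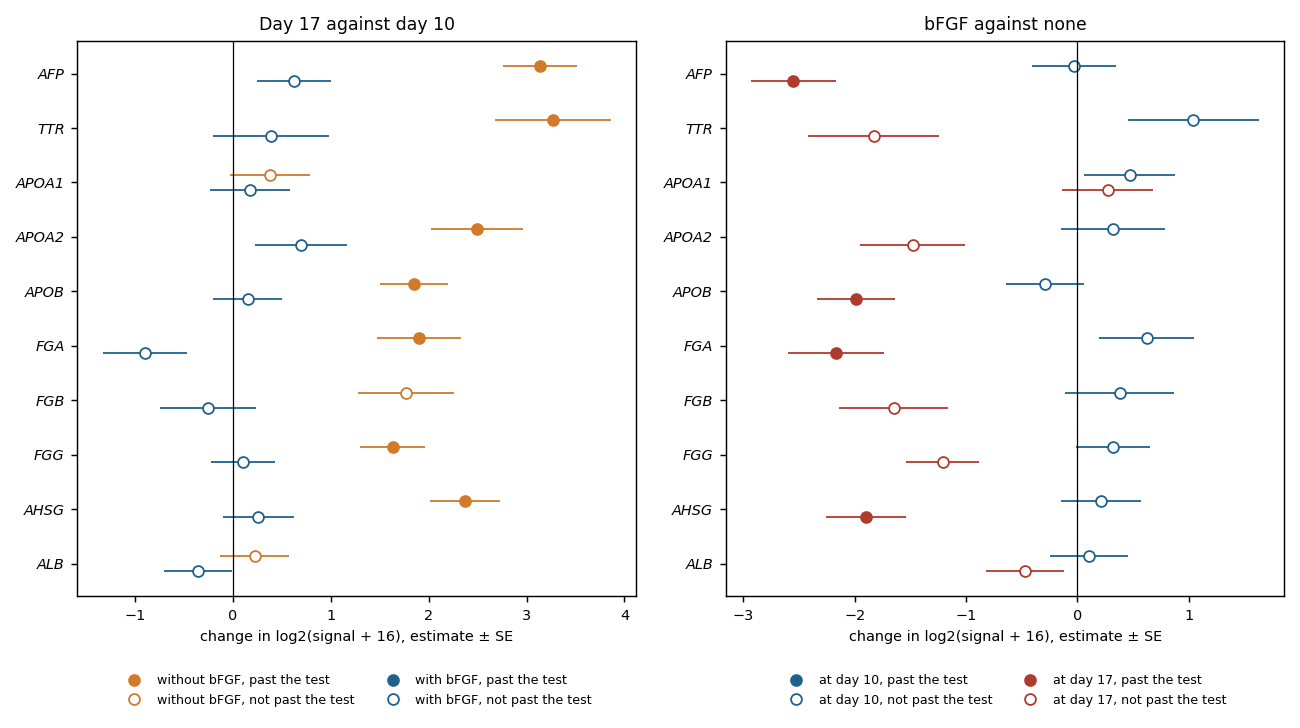
Estimates ± SE on the log2(signal + 16) scale: day 17 against day 10 without and with bFGF (left), and with bFGF minus without at days 10 and 17 (right); filled points passed the test. Without bFGF 7 of 10 points are filled on the left, with bFGF 0, and at day 17 the 4 filled points on the right are AFP, APOB, FGA and AHSG.

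Whether the effect of bFGF differed between the days was tested as the interaction of day and bFGF, which also compares the rise with and without bFGF. The difference was negative for all 10 genes (median -1.92, all genes 0.00). By limma's test 0 of 10 members and 0 of 19775 genes passed, a called share of 0%; at an unadjusted p under 0.05 there were 631 genes (3.19%), among them 8 of 10 members, all lower, against 1.99% of all genes. The largest were TTR (-2.88 ± 0.83, adjusted p = 0.891), FGA (-2.80 ± 0.61, adjusted p = 0.610) and AFP (-2.52 ± 0.53, adjusted p = 0.610). Without untreated day 10 pool 2, in which AFP was at 189, the AFP difference was -3.08 (adjusted p = 0.0172), and it was the 1 member past the test. On all 18 arrays no member passed this test, also with pool numbers fitted as a block (AFP and TTR each at limma's adjusted p = 0.180). The day 17 comparisons share the untreated day 17 pools, so that their opposite signs are not independent of each other. By its labels bFGF was at 20 ug/ml at day 10 and 20 ng/ml at day 17. If that holds, day and dose cannot be told apart in the interaction.

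The calls depended on how the spread was estimated and on single pools. With the compared groups fitted alone, 0 of 10 members passed in either day 17 comparison (adjusted p 0.0519 to 0.203 for the 7 and 0.0874 to 0.359 for the 4), and with a pseudocount of 1 the counts were 3 and 1. AFP, TTR and AHSG kept the call of the untreated rise without any 1 array. APOA2 lost it without day 17 pool 3 (0.0540), APOB without day 10 pool 3 (0.0539), FGG without day 10 pool 3 (0.0884) or day 17 pool 2 (0.0831), and FGA without day 10 pool 2 (0.0748) or 3 (0.140) or day 17 pool 2 (0.126) or 3 (0.102). Without day 10 pool 2, FGB passed (0.00941).

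For the bFGF effect at day 17, AFP alone kept its call without any 1 array. APOB lost it without untreated pool 3 (0.0771) or bFGF pool 2 (0.0612) or 3 (0.102). AHSG lost it without untreated pool 1 (0.0771), 2 (0.151) or 3 (0.112), bFGF pool 1 (0.209) or 3 (0.122), ES pool 1 (0.0501) or day 6 pool 1 (0.0514). FGA lost it without any of the 6 compared arrays (0.0505 to 0.227), ES pool 1 (0.0597), day 6 pool 2 (0.0508) or bFGF day 10 pool 1 (0.0595). By its next brightest probe set, FGA had the other sign in both comparisons (-0.22 for the rise and 0.65 for bFGF).

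The untreated day 17 pools did not order the genes alike. TTR, APOA2 and APOB were lowest in pool 2 and highest in pool 3, with highest-over-lowest ratios of 3.73, 2.68 and 2.83. FGA, FGB, FGG and AHSG were lowest in pool 1 and highest in pool 2, with ratios of 2.19, 2.35, 2.88 and 1.44. AFP was highest in pool 3 and lowest in pool 1 (1.51). The brighter probe sets of APOA1 followed TTR, with pool 3 highest (514) and pool 2 lowest (147). Pool 2 is also the array with raised low signals, and AFP, FGB and AHSG were highest in pool 2 both at untreated day 10 and at day 17 with bFGF. The part of pool 2 in this order was not tested.

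**Figure D4:**
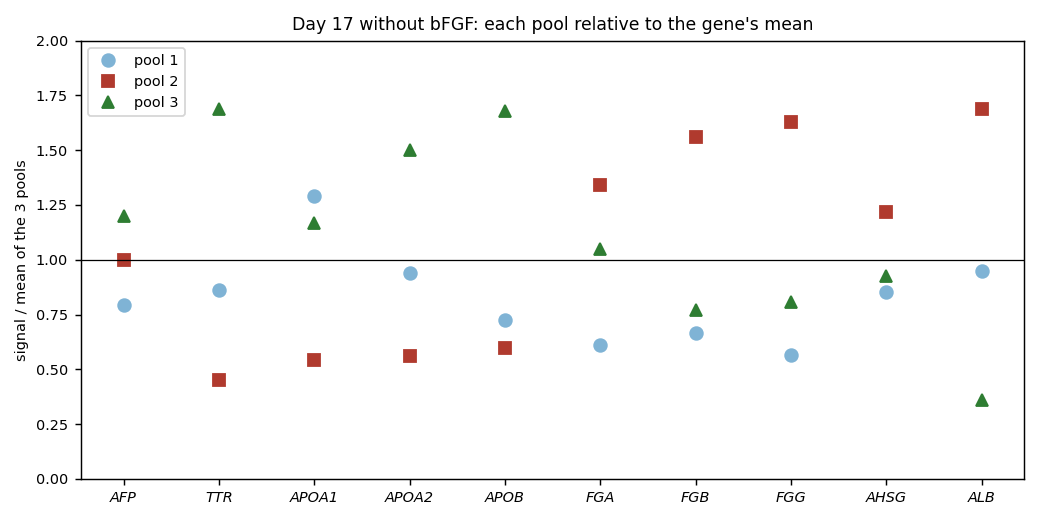
Signal of each untreated day 17 pool divided by the gene's mean over the 3 pools (linear axis). TTR, APOA2 and APOB have pool 3 on top and pool 2 at the bottom, and FGA, FGB, FGG and AHSG have pool 2 on top and pool 1 at the bottom.

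Over the 18 arrays, on the log2(signal + 16) scale and as a description, AFP correlated with AHSG at 0.94, APOA2 at 0.87 and TTR at 0.76. FGG correlated with AHSG at 0.90 and with FGA at 0.85, and TTR with APOA2 at 0.88. ALB correlated with AFP at 0.24 and APOA1 231694_at with AFP at 0.14. These points share 3 high arrays, those of untreated day 17. Outside the 10 genes, the closest to the mean of the members were CRB1 (Pearson's r 0.900), which organises photoreceptor and neuroepithelial junctions, NR2E1 (0.898), a nuclear receptor of forebrain and retinal progenitors, SNCAIP (0.890), FOXN4 (0.888), a factor of retinal and spinal progenitors, and RBP4 (0.888), the retinol carrier of plasma. The next were ABHD3 (0.884), INA (0.884), a neuronal intermediate filament, G0S2 (0.872), TYRP1 (0.869), a melanin enzyme, and DAB1 (0.866), an adaptor of reelin signalling. The closest to AFP were SNCAIP (0.923), ERICH5 (0.903), TYRP1 (0.893), CRB1 (0.890) and CELF3 (0.886), and to TTR the neighbour of APOA1, APOC3 (0.919), then TOX2 (0.880), GEM (0.870), DUSP28 (0.867) and RNF182 (0.858).

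Other liver and yolk sac proteins were set beside the 10. Of 47 measured other secreted proteins, from clotting factors to complement, 1 rose from day 10 to day 17 without bFGF, against 1.45% of all genes. At an unadjusted p under 0.05, 6 of the 47 were higher and 0 lower, against 5.86% and 3.90% of all genes, and the median log2 change was 0.05. That gene was RBP4, the partner of TTR in retinol transport, with 31.8, 8.62 and 6.62 at day 10 and 139, 112 and 260.5 at day 17 (2.56 ± 0.46, limma, adjusted p = 0.00701). With bFGF at day 17 RBP4 was at 50.3, 33.6 and 42.5, below all untreated pools (-1.61, adjusted p = 0.357), and in that comparison limma called 0 of the 47 (1 higher and 4 lower at an unadjusted p under 0.05, against 2.01% and 2.94% of all genes, median -0.15). SERPINA1 (alpha-1 antitrypsin) was at 151 against 59.9 (1.5 ± 0.54, adjusted p = 0.267), and APOC3, an inhibitor of lipoprotein lipase, at 65.7 against 13.3 (1.40 ± 0.46, adjusted p = 0.182). APOA4 (15.9 against 30.0) and APOA5 (25.1 against 16), of the same gene cluster as APOA1, were not called.

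Among 22 measured transcription factors of liver and endoderm, 2 rose without bFGF, against 1.45% of all genes, and both are known as regulators of AFP. At an unadjusted p under 0.05, 4 of the 22 were higher and 0 lower, against 5.86% and 3.90% (median 0.28). Groups were apart upward for 6, against 7.29% of all genes. They were apart downward for 1, for which the share of all genes is not reported here. ZFHX3, a repressor of the AFP enhancer, was at 603 ± 151 against 297 ± 38.3 (0.96 ± 0.22, limma, adjusted p = 0.0287), and ZBTB20, which represses AFP in the liver after birth, at 208 ± 23.3 against 105 ± 20.6 (0.90 ± 0.21, adjusted p = 0.0387). ZFHX3 and ZBTB20 are also expressed in neural cells. They passed the test in 21 and 12 of 29 alternatives. With bFGF, ZFHX3 (1.00) and ONECUT2 (2.08), a factor of liver and of neurons, rose between the days, against 0.662% of all genes. At day 17, bFGF against none called 0 of the 22. At an unadjusted p under 0.05, 0 were higher and 3 lower there, against 2.01% and 2.94% (median -0.21). The 22 summed to 3444 to 4160.2 at untreated day 17 and 2288 to 2823 at untreated day 10. With bFGF at day 17 they summed to 2369 to 2843. The brightest of them, NR2F1, was at 1376 ± 439, 837 ± 169 and 579.9 ± 199 in these groups.

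The genes of lipoprotein assembly and uptake gave 0 of 17 called by limma without bFGF, against 1.45% of all genes higher and 0.536% lower. At an unadjusted p under 0.05, 1 was higher and 1 lower, against 5.86% and 3.90% (median 0.03). LRP2 (megalin), the uptake receptor of the yolk sac that neuroepithelium also carries, fell between the days with bFGF, to 386 ± 83.2 from 817 ± 72.6 (-1.07, limma, adjusted p = 0.0194), and was at 702 ± 60.3 without. Of 15 hepatocyte enzymes, 0 were called between the days without bFGF. At an unadjusted p under 0.05, 2 of the 15 were higher and 0 lower, against 5.86% and 3.90% of all genes (median -0.03). With bFGF at day 17, 1 of the 15 was called lower, against 0.157% of all genes. This was BHMT, a methyltransferase of liver and kidney, with 5.39, 7.51 and 10.4 against 146, 316 and 83.4 (-2.88 ± 0.43, limma, adjusted p = 0.00620). It passed in 28 of 29 alternatives. At day 10 BHMT also had a lower mean with bFGF (24.2 ± 16.3 against 92.9 ± 50.1). There limma called 0 of the 15 (1 lower at an unadjusted p under 0.05).

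**Figure D5:**
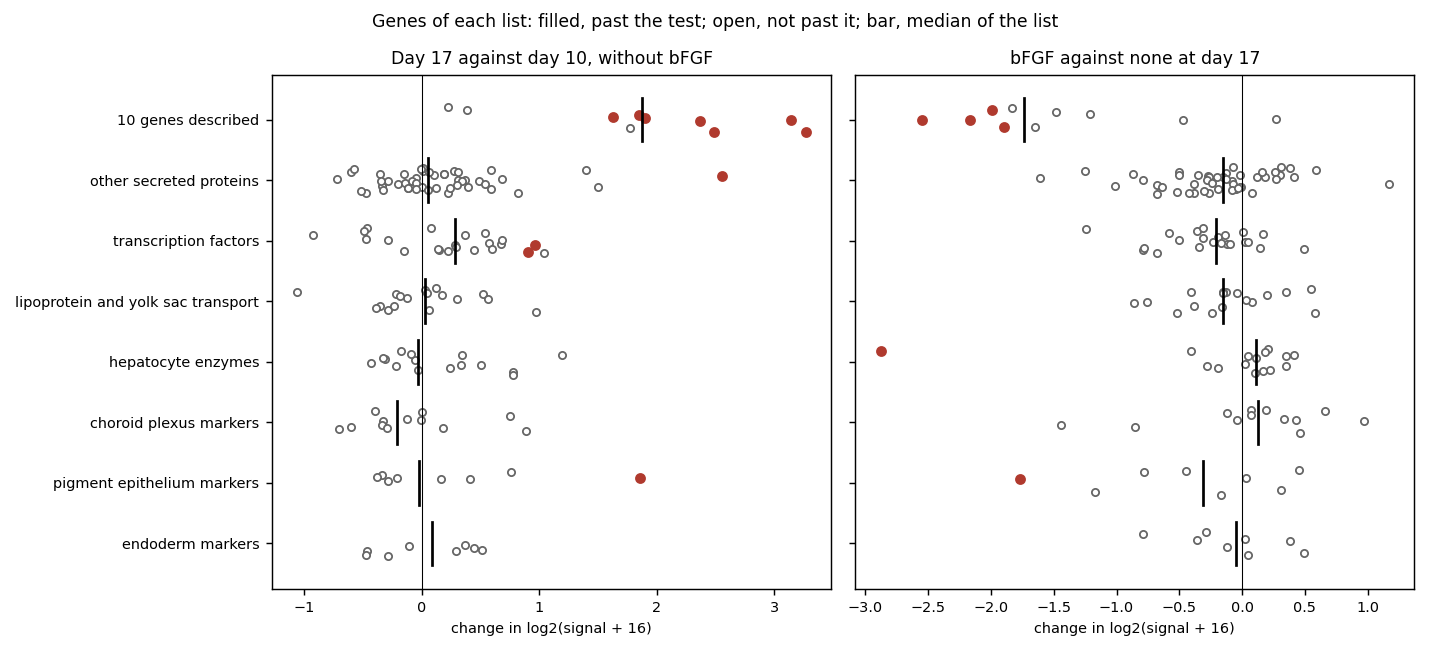
Each point is a gene of a list, placed by its difference in log2(signal + 16) for day 17 against day 10 without bFGF (left) and bFGF against none at day 17 (right); filled points passed the test and bars are list medians. The medians of the 10 genes are 1.87 and -1.74, while those of the other secreted proteins are 0.05 and -0.15. The 10 genes and the lists were chosen with earlier results of these data known, so the contrast is a description.

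Markers of cell types that could hold these transcripts were set beside them. From day 10 to day 17 without bFGF, the shares of all genes for these counts were 1.45% called higher and 0.536% lower. At an unadjusted p under 0.05 they were 5.86% and 3.90%. For bFGF at day 17 the shares were 0.182% and 0.157% called, and 2.01% and 2.94% at an unadjusted p under 0.05. Of 8 measured endoderm markers, limma called 0 from day 10 to day 17 without bFGF, and 0 had an unadjusted p under 0.05. Their summed signal was 784 to 1054 at untreated day 17, 620.2 to 815 at untreated day 10 and 978 to 1139 at day 17 with bFGF. Most of this sum is CXCR4, a chemokine receptor that other cells carry too (616 ± 241 at day 17 without bFGF and 782 ± 196 with). At untreated day 17, FOXA2 was at 13.9 ± 7.72, SOX17 at 50.7 ± 15.5, GATA4 at 42.6 ± 50.2 and GATA6 at 67.3 ± 16.9. At day 17 with bFGF these were at 7.27 ± 5.74, 23.4 ± 14.1, 42.1 ± 48.2 and 101 ± 26.1. In that comparison limma called 0 of the 8, and SOX17 was lower at an unadjusted p under 0.05 (-0.79 ± 0.29, adjusted p = 0.656). None of these markers was listed at 0, and there are no detection calls to say which of these low signals lie above background. Of the 10 endoderm markers listed, 8 are also in the list of transcription factors.

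Of 12 choroid plexus markers 0 were called without bFGF (1 higher at an unadjusted p under 0.05), with sums of 4252 to 5616 at untreated day 17, 5392 to 9005 at untreated day 10 and 4895 to 6459 at day 17 with bFGF. Most of this sum is FOLR1 and OTX2, which were at 3033 and 2821 in ES cells as well. KCNJ13, a potassium channel of choroid plexus and pigment epithelium, fell between the days with bFGF (40.7 against 157, -1.54, limma, adjusted p = 0.0284). At day 17 KCNJ13 was at 40.7 ± 12.2 with bFGF and 145 ± 68.4 without, with the groups apart (-1.44 ± 0.33, adjusted p = 0.102), and AQP1, a water channel, at 59.1 ± 26.8 and 119 ± 39.4 (-0.85 ± 0.41, adjusted p = 1.00). MSX1 (411 ± 151 with bFGF, 207 ± 108 without) and SOSTDC1 (167 ± 39.4 and 100.4 ± 32.3) had higher means with bFGF. In that comparison limma called 0 of the 12. At an unadjusted p under 0.05, 2 were higher and 1 lower, against 2.01% and 2.94% of all genes (median 0.13). Of 8 pigment epithelium markers 1, TYRP1, rose without bFGF, from 38.7, 106 and 53.2 to 246, 382 and 198 (1.86 ± 0.32, adjusted p = 0.00416). TYRP1 also fell with bFGF at day 17, to 47.4, 85.8 and 71.1 (-1.77 ± 0.32, adjusted p = 0.0190), a call held in 23 of 29 alternatives. MITF, a factor of pigment cells, was at 78.5 ± 11 with bFGF and 205 ± 87.0 without, also apart (-1.17 ± 0.35, adjusted p = 0.401). BEST1 (54.0 ± 45.2 with bFGF, 30.2 ± 15.5 without) and SERPINF1 (566 ± 262 and 429 ± 127) had higher means with bFGF. Of the 8, limma called 1 lower there, against 0.157% of all genes. At an unadjusted p under 0.05, 0 were higher and 2 lower, against 2.01% and 2.94% (median -0.31). Groups were apart downward for 2, against 5.07%. At day 10 TYRP1 was at 22.9 ± 7.29 with bFGF and 66.1 ± 35.7 without, and MITF at 77.0 ± 42.2 and 151 ± 57.8. In that comparison limma called 0 of the 8 (1 higher and 2 lower at an unadjusted p under 0.05). The summed pigment epithelium markers were at 1371 to 1843 at untreated day 17, 1278 to 1832 at untreated day 10 and 736 to 1593 at day 17 with bFGF, most of it PMEL and SERPINF1. Of the 7 intestine and 8 mesoderm and blood markers 0 were called without bFGF (1 of the latter lower at an unadjusted p under 0.05). For bFGF at day 17 limma called 0 of either list. At an unadjusted p under 0.05, 1 intestine marker was higher and 1 lower, and 1 mesoderm and blood marker higher and 2 lower. HBE1 was at 23.0 ± 22.8 with bFGF and 69.9 ± 19.2 without, ACTC1 at 1284 ± 595 and 3791 ± 1939.7, and KDR at 179 ± 56.9 and 87.3 ± 26.2. The part of these cell types in the result was not tested.

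The labelled identity of the cells was checked by their own markers. Of 8 neuroepithelium markers, SOX1 (1551 against 612, 1.34) and ZIC1 (4753 against 1189, 2.15) rose from day 10 to day 17 without bFGF. At an unadjusted p under 0.05, SIX3 (1144 ± 80.6 against 2660.0 ± 249, -1.20, limma, adjusted p = 0.0761) and SOX2 (6591 ± 413 against 9466 ± 1415, -0.51, adjusted p = 0.203) were lower. Of all genes, 1.45% were called higher in this comparison, and 3.90% were lower at an unadjusted p under 0.05. The 8 markers summed to 22121 to 36018 at untreated day 10, 25315 to 31273 at untreated day 17 and 6143 to 7608 in ES cells. At day 17 PAX6 was at 1221 ± 251 with bFGF and 2213 ± 647 without (-0.83 ± 0.26, adjusted p = 0.449). ZIC1 (8042 ± 987 with bFGF, 4753 ± 1299 without) and FABP7 (7017 ± 61.5 and 5906 ± 1143) had higher means with bFGF. Of the 8, limma called 0 in that comparison. At an unadjusted p under 0.05, 0 were higher and 1 lower, against 2.01% and 2.94% of all genes (median -0.21). From day 10 to day 17 without bFGF, 0.536% of all genes were called lower. Of 6 pluripotency markers 4 fell there (LIN28A, DNMT3B, ZFP42 and DPPA4, -0.89 to -1.35). Of 8 trophoblast markers 1 fell in the same comparison (CGA, a hormone subunit, 6.33 against 43.4).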

How the data were processed

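Total RNA pools were hybridised to 1-colour Affymetrix arrays with 54675 probe sets; groups and pool numbers come from the sample titles, and the number of ES pool 1 follows the sample order. For 1 bFGF day 10 pool the description gives another number than the title, which was followed. The authors deposited a linear signal, an intensity, for every probe set on each array. From the values, it had been scaled to 1 trimmed mean; the sources used here do not give the summarisation software, background method or detection calls, so a low signal has no bound. Precision is limited by how many arrays there are. Of the probe sets, 41097 name 1 gene, 1801 several and 11777 are unnamed here.

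Signals were analysed as log2(signal + 16) in R 4.3.3 using limma 3.58.1 (lmFit and eBayes, a mean for each group, 18 arrays, 12 residual degrees of freedom), with Benjamini-Hochberg adjustment over 19775 genes, a threshold of 0.05 and 7 comparisons, after the script was tested on simulated data. No further normalization was applied, and the main fit held no term for pool number. The members, gene lists, marker lists, motifs and alternatives were chosen with earlier results of these data known. Named genes are the members, list genes past the test (up to 4 per comparison), cluster neighbours of AFP and APOA1, and the closest correlates; SERPINA1 and marker genes not past the test were chosen after their values were seen. Of the planned motifs 1, and some listed factors, are not reported here. Equal pool numbers pair the arrays in the comparisons among neuroepithelial groups: across genes, deviations from group means correlated at 0.317 to 0.693 for equal numbers. Day 6 against ES cells gave 0.209 to 0.383, and untreated day 10 against day 6 had a lowest value of 0.0749, so that its numbers are not taken as pairing. Alternatives were other pseudocounts (1 and 64), quantile scaling, the upper 60% of genes, a trended and robust prior, compared groups alone, other probe sets, the pool number as a block, pool 2 left out or as a term, and each array left out.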

Additional observations from a re-analysis of the deposited data

How the results depend on the processing

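Of the 11 member changes past the test, 9 kept their sign in every alternative; FGA reversed by its next brightest probe set, to -0.22 for the untreated rise from day 10 to day 17 and to 0.65 for bFGF at day 17. Of the 59 member changes not past the test, 31 had another sign in 1 or more alternatives. The untreated rise called 3 members with a pseudocount of 1, 0 with the compared groups alone and 2 by the next brightest probe sets, which only 4 of the 7 have, and 4 to 7 without 1 array, the lowest without untreated day 10 pool 3. bFGF at day 17 called 1, 0 and 1 members in these settings (3 of the 4 have a next probe set), and 1 to 4 without 1 array, the lowest without untreated or bFGF day 17 pool 3; for the difference of the bFGF effects the range was 0 to 1. Members called stayed at 0 under bFGF between the days, for bFGF at day 10, for day 6 against ES cells and for untreated day 10 against day 6, in every alternative run. The upper 60% of genes by mean signal keeps 5 of the 10 members.

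With the pool number as a replicate block, the counts of all genes were 754 for the untreated rise, 446 for the rise with bFGF, 34 and 120 for bFGF at day 10 and day 17, 1 for the difference, 1454 for day 6 against ES cells and 2512 for untreated day 10 against day 6; as a random block they were 754, 447, 38, 122, 1, 1363 and 2300. The block changed no other member's call than those of FGB. For the untreated rise, 226 genes passed with a pseudocount of 1, 34 with the compared groups alone, 229 without pool 2 and 645 with the 4 arrays as a term; for the rise with bFGF these were 113, 6, 106 and 362. For bFGF at day 10 they were 2, 0, 4 and 37, and 10 with averaged probe sets. For bFGF at day 17, 20 passed with a pseudocount of 1, 0 alone and 102 with the 4 arrays as a term. The difference gave 1 gene with a pseudocount of 64 and 1 with the 4 arrays as a term. Day 6 against ES cells gave 1171 with the 4 arrays as a term, and untreated day 10 against day 6 gave 647 alone and 1957 over all probe sets. Without 1 array the counts of genes ranged, in the order of the block's list, over 206 to 409, 113 to 219, 3 to 19, 22 to 73, 0 to 1, 462 to 776 and 842 to 1326. Quantile scaling moved the share of higher calls in untreated day 10 against day 6 from 58.5% to 49.0% and the median of all genes from 0.09 to -0.02. The causes of these differences were not tested.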
